A study of Mus musculus with 20 samples.

Results

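The genes described here are 10 genes of antioxidant defence and metal binding, Nqo1, Hmox1, Txnrd1, Gpx2, Gclc, Gclm, Srxn1, Sod2, Mt1 and Mt2, measured in mouse hair follicle stem cells. They were found through the transcript accessions of the array probes, and each was represented by its probe with the highest mean signal among the tested probes. All 10 were measured, of 18727 genes tested in all, and the chosen probe of each was well above background on 20 of 20 arrays. Hair follicle stem cells live in the follicle's bulge and regenerate its lower part with every cycle. Samples of total RNA from male mice were hybridised singly to 20 one-colour Agilent arrays. The groups were mice aged 24 months (aged), mice given a high fat diet for 3 months (HFD 3M) or a normal diet for as long (ND 3M), all 5 months old, and mice given either diet for 4 days (HFD 4d and ND 4d), all 2 months old. Each of the 5 conditions had 3 arrays of resting follicles (telogen) and 1 array of growing follicles (anagen). The labels name neither strain nor genotype, give no diet for the aged mice, and do not state whether each replicate is a different mouse. The p-values below therefore cover only the variation among these arrays, part of which may be technical. The labels used here do not describe the isolation of the stem cells.

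NRF2 (encoded by Nfe2l2) is a transcription factor that KEAP1 holds at a low level. Oxidants and electrophiles free it to bind antioxidant response elements with a small MAF partner, and Nqo1, Hmox1, Txnrd1, Gclc, Gclm, Srxn1 and Gpx2 are among its known targets. Metallothioneins are small cysteine-rich proteins that bind zinc and copper, and the zinc-sensing factor MTF1 induces their genes through metal response elements. Sod2 encodes the superoxide dismutase of mitochondria. In skin, these genes are known for protecting keratinocytes from oxidants and metals.

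All levels below are log2 of the processed intensity relative to the 75th percentile of the same array, which is 0 on this scale, and a level is compared only with the same probe on other arrays. Between 60.7% and 71.1% of spots were well above background on anagen arrays and between 64.3% and 83.5% on telogen arrays, and 0 spots were saturated. The median correlation of an array with the other arrays lay between 0.87 and 0.91, with the aged anagen array lowest. The 10 bulge stem cell markers, Cd34, Lgr5 and Krt15 among them, were well above background on all 20 arrays. Slide 1 held ND 3M and HFD 3M telogen and ND 3M anagen, slide 2 held both 4-day telogen groups with the HFD 3M and ND 4d anagen arrays, and slide 3 held aged telogen with the aged and HFD 4d anagen arrays. Every anagen array lay in column 1 of its slide and every telogen array in another column, so phase and column cannot be told apart. The ND 3M and ND 4d telogen arrays lay in row 1 of their slides and the HFD 3M and HFD 4d telogen arrays in row 2. Diet and row therefore cannot be told apart in telogen.

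Anagen set against telogen asks how the members differ between growth and rest of the follicle. In anagen Txnrd1, a thioredoxin reductase, rose 3.53-fold and Gpx2, a glutathione peroxidase of epithelia, rose 3.16-fold, while Mt1, a metallothionein, fell 2.27-fold. Thus 3 of the 10 members passed the test (limma over 20 arrays with condition as a factor, adjusted p below 0.05 over all genes), 2 higher and 1 lower. Of all 18727 genes 6.11% passed, 2.81% higher and 3.31% lower. At an unadjusted p below 0.05 it was 4 of 10 members, against 22.9% of genes. The median difference was 0.21 over the members and -0.16 over all genes. That median was -0.02 after quantile normalization, under which Txnrd1, Gpx2 and Mt1 had the same directions and passed. None of the 3 passed once slide was added as a factor, as given for each below. In that fit the HFD 3M and HFD 4d anagen arrays, on other slides than their telogen arrays, serve only to link the slides. The phase difference there rests on aged, ND 3M and ND 4d, so fewer anagen arrays bear on it. The samples are bulk RNA, in which fewer cells of a type and less RNA per cell cannot be told apart.

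Txnrd1 encodes the cytosolic selenoenzyme that keeps thioredoxin reduced. Its level was 2.02 in aged, 2.40 in HFD 3M, 2.72 in ND 3M, 1.86 in HFD 4d and 1.45 in ND 4d anagen. The telogen levels were -0.06, 0.37 and -1.89 in aged, 1.36, 0.43 and 0.52 in HFD 3M, -0.09, 0.91 and 0.96 in ND 3M, 0.67, -0.20 and -1.38 in HFD 4d, and -0.29, 1.43 and 1.30 in ND 4d arrays. All 5 anagen arrays lay above all 15 telogen arrays, which held for 0.791% of all genes in this direction, and the closest pair was the ND 4d anagen array and an ND 4d telogen array. The difference was 1.82 ± 0.41 (log2, SE; limma adjusted p = 0.0148). Within conditions it ran between 0.64 in ND 4d and 2.54 in aged, and on the 3 conditions whose anagen and telogen arrays shared a slide it was 2.54 in aged, 2.13 in ND 3M and 0.64 in ND 4d. With slide as a factor the difference was 1.77 ± 0.57 and did not pass (adjusted p = 0.0893), and it did not pass without the aged (0.0615), ND 3M (0.0612) or HFD 4d (0.0617) anagen array. A second Txnrd1 probe differed by 2.12 ± 0.71 in the same direction, but its arrays overlapped, with -1.59 to 1.14 in anagen and -4.58 to 0.45 in telogen.

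Gpx2 encodes a selenium-dependent peroxidase that reduces hydrogen peroxide with glutathione. It had levels of 0.54 in aged, 0.11 in HFD 3M, -0.65 in ND 3M, -1.02 in HFD 4d and -0.89 in ND 4d anagen. In telogen it had -2.96, -0.97 and -0.85 in aged, -1.32, -2.84 and -2.99 in HFD 3M, -2.95, -2.92 and -0.78 in ND 3M, -1.46, -2.53 and -2.39 in HFD 4d, and -2.18, -2.36 and -1.20 in ND 4d arrays. Each anagen array lay above the telogen arrays of its own condition, and 3 of the 5 lay above all telogen arrays. The difference was 1.66 ± 0.43 (limma adjusted p = 0.0284), with 1.02 in ND 4d as the smallest and 2.49 in HFD 3M as the largest value within a condition. With slide as a factor it was 1.57 ± 0.57 and did not pass (adjusted p = 0.12). It did not pass without any 1 of the anagen arrays, with adjusted p of 0.0925 without aged, 0.0602 without HFD 3M, 0.0808 without ND 3M, 0.0571 without HFD 4d and 0.0521 without ND 4d. A probe of the pseudogene Gpx2-ps1 differed by 1.86 ± 0.66. Probe sequences were not used here, so whether either probe also binds the RNA of the other gene was not tested.

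Mt1 and Mt2 are neighbouring genes on chromosome 8, and both encode metallothioneins of most tissues. Mt1 had levels of 4.09 in aged, 3.91 in HFD 3M, 3.28 in ND 3M, 3.19 in HFD 4d and 2.98 in ND 4d anagen. In telogen it had 5.03, 4.16 and 5.08 in aged, 4.99, 4.27 and 4.41 in HFD 3M, 4.91, 4.19 and 4.54 in ND 3M, 4.59, 5.24 and 4.98 in HFD 4d, and 4.05, 4.38 and 5.25 in ND 4d arrays. Each anagen array lay below the telogen arrays of its own condition, and 4 of 5 lay below all 15 telogen arrays. The difference was -1.18 ± 0.24 (limma adjusted p = 0.0087), and within conditions it ran between -1.75 in HFD 4d and -0.64 in HFD 3M. Without the HFD 4d anagen array the difference was -1.04 ± 0.27 and missed the threshold narrowly, and with slide as a factor it was -1.17 ± 0.31 (adjusted p = 0.0524).

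Mt2 had levels of 5.39 in aged, 5.09 in HFD 3M, 4.46 in ND 3M, 4.30 in HFD 4d and 4.45 in ND 4d anagen. In telogen it had 5.99, 4.93 and 5.92 in aged, 5.70, 5.08 and 5.38 in HFD 3M, 5.91, 5.02 and 5.19 in ND 3M, 5.55, 6.26 and 5.98 in HFD 4d, and 4.86, 5.27 and 6.09 in ND 4d arrays. The aged and HFD 3M anagen arrays lay within the range of their telogen arrays, and the other 3 lay below all telogen arrays. The difference of -0.80 ± 0.26 did not pass (limma adjusted p = 0.079), although its sign was the same in all 5 conditions, with values between -1.63 and -0.22. It passed only when aged telogen replicate 2 was left out (-0.88 ± 0.24, adjusted p = 0.0369), among the 20 arrays left out in turn.

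A second probe assigned to Mt1 through a predicted transcript gave another pattern. It differed by -1.08 ± 0.86 between anagen and telogen, and averaged with the first probe the Mt1 difference was -1.13 ± 0.49 and did not pass (limma adjusted p = 0.17). Its levels were 0.04, 2.14 and 0.74 in HFD 4d and -2.19, -3.61 and -3.01 in ND 4d telogen, a difference of 3.91 ± 1.18, where the chosen probe differed by 0.38 ± 0.39. The aged telogen arrays had 0.58, -2.78 and 0.48 on it, and the ND 3M telogen arrays 2.49, -1.03 and -2.59. Its levels therefore spread over several log2 units within groups in which the chosen probe stayed within 1.

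**Figure D1:**
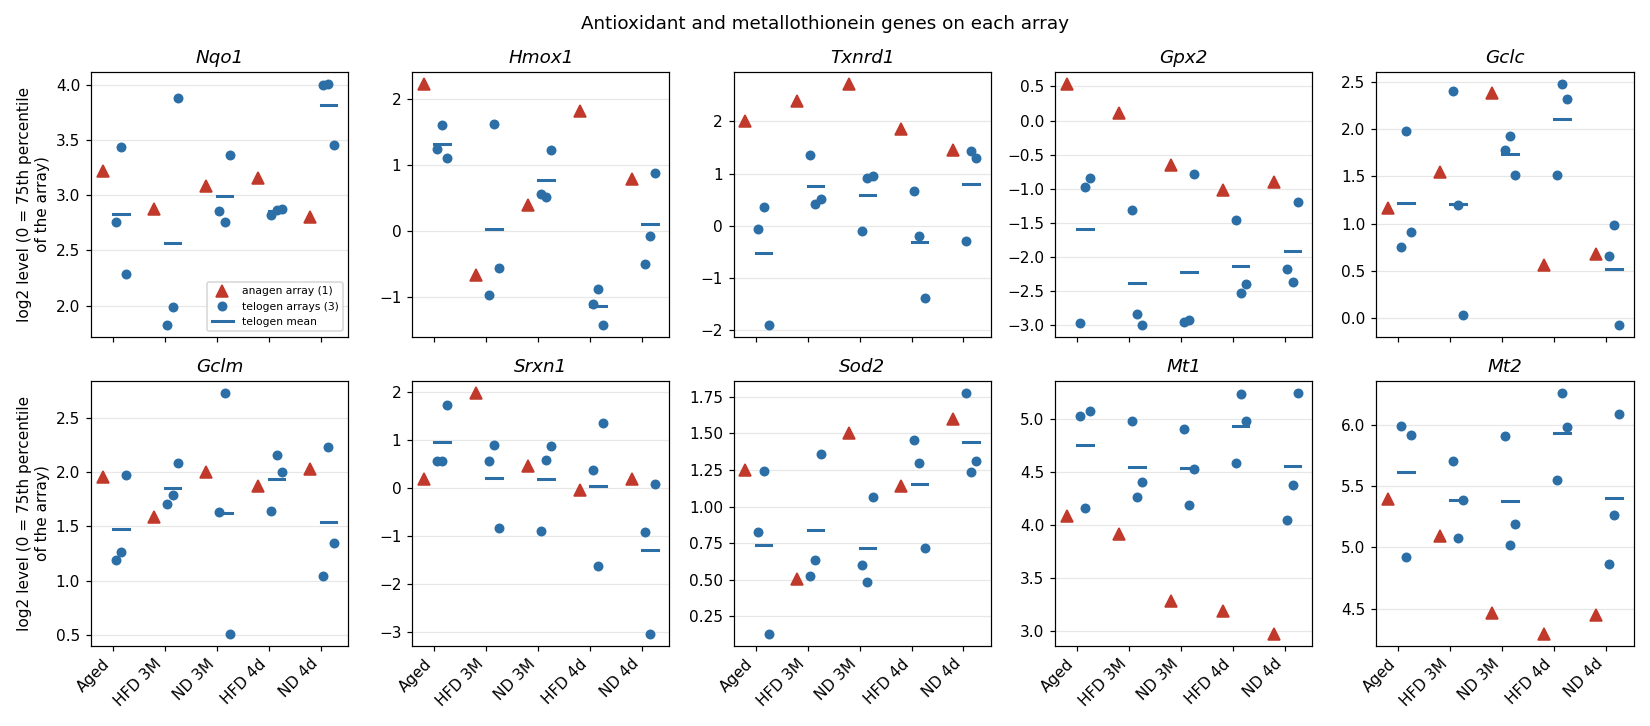
Log2 level of each member (y axis, 0 is the 75th percentile of the array) in the 5 conditions (x axis), with a red triangle for the 1 anagen array and blue circles with their mean as a line for the 3 telogen arrays of a condition. The 5 Txnrd1 triangles lie above every circle of that panel, the Gpx2 triangles lie above and the Mt1 triangles below the circles of their own condition, and the other members overlap more.

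The promoters of the metallothioneins are shown because MTF1 is known to act on them through metal response elements, and the Txnrd1 site because it is the only match to an antioxidant response element among 3 Txnrd1 promoters. Sequences are from RefSeq (GRCm38.p6, plus strand, 5′ to 3′), where 8 of the 10 members matched an entry, with 10 promoters between them. Each entry spans 250 bases before to 50 after an annotated start. Both strands were searched for TGCACNC or TGCGCNC, the core of the metal response element (capitals in the metallothionein sequences), and for TGACNNNGC, the core of the antioxidant response element (capitals in the Txnrd1 site). The Mt1 and Mt2 stretches are the 250 bases before the start, chr8:94178839-94179088 and chr8:94172368-94172617. The shorter stretches are chr8:94179079-94179108 for Mt1, chr8:94172610-94172639 for Mt2 and chr10:82859103-82859132 for Txnrd1.
Mt1 upstream: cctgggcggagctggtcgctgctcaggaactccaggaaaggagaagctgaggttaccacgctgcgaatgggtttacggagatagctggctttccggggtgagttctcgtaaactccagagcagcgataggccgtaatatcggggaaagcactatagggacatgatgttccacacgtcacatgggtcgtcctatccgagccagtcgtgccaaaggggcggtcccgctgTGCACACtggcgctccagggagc
Mt1 site past the start: tccagggagctcTGCACTCcgcccgaaaag
Mt2 upstream: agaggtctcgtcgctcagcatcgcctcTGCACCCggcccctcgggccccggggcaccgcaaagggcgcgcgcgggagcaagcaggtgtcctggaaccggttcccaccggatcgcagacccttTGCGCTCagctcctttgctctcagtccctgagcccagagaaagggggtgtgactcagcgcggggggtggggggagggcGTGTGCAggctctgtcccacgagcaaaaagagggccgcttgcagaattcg
Mt2 site past the start: agaattcgggtcGTGCGCAggcccaggggc
Txnrd1 site: actggatttttGCTTTGTCAttctgacacg

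The metal response core occurred 3 times in the Mt1 window, with first bases at -23, 3 and 21 from the start, and 4 times in the Mt2 window, at -223, -128, -50 and 5. At least 1 match occurred in 25.7% of the 32851 promoters in the table, and 3 or more in 1.97%. Gclm also had 3 matches and Srxn1 had 1. The antioxidant response core occurred once each in Mt2, Gclm and Srxn1 and in 1 Txnrd1 promoter, at -92, and in 12.4% of all promoters. In Gclm its match overlapped one of the metal response matches. The Nqo1, Gpx2 and Sod2 windows and the other 2 Txnrd1 windows held neither core. A match describes the letters in these windows, and other start sites were not used here. Positions hold for the annotated start only. Metal response elements of mouse Mt1 are known to lie before its start, so the annotated Mt1 start may not be the one used in these cells, and the Mt1 window may not be its whole promoter.

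The other 6 members did not pass between anagen and telogen. Nqo1, a quinone reductase, had a median of 3.09 (range 2.80 to 3.22) over anagen and 2.87 (1.83 to 4.01) over telogen arrays and differed by 0.01 ± 0.30. Hmox1, the inducible heme oxygenase, had 0.79 (-0.66 to 2.23) in anagen and 0.53 (-1.41 to 1.62) in telogen and differed by 0.70 ± 0.45. Its largest value within a condition was 2.95 in HFD 4d, where the anagen array had 1.82 and the telogen arrays -1.10, -0.87 and -1.41.

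Gclc and Gclm encode the catalytic and modifier subunits of the enzyme that starts glutathione synthesis. Gclc had a median of 1.17 (0.56 to 2.38) in anagen and 1.51 (-0.07 to 2.48) in telogen and differed by -0.09 ± 0.36. Gclm had 1.96 (1.59 to 2.03) in anagen and 1.70 (0.51 to 2.74) in telogen and differed by 0.20 ± 0.29. For both, every anagen array lay within the telogen range. Srxn1, which repairs overoxidised peroxiredoxins, had 0.19 (-0.04 to 1.99) in anagen and 0.56 (-3.03 to 1.74) in telogen and differed by 0.54 ± 0.55, and its HFD 3M anagen array alone lay above all telogen arrays. Sod2 had 1.25 (0.51 to 1.60) in anagen and 1.06 (0.13 to 1.78) in telogen and differed by 0.22 ± 0.22. For these 6 the sign differed between conditions, and the 95% intervals reached 1.69 at most and -0.85 at least, so differences up to those sizes remain possible.

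**Figure D2:**
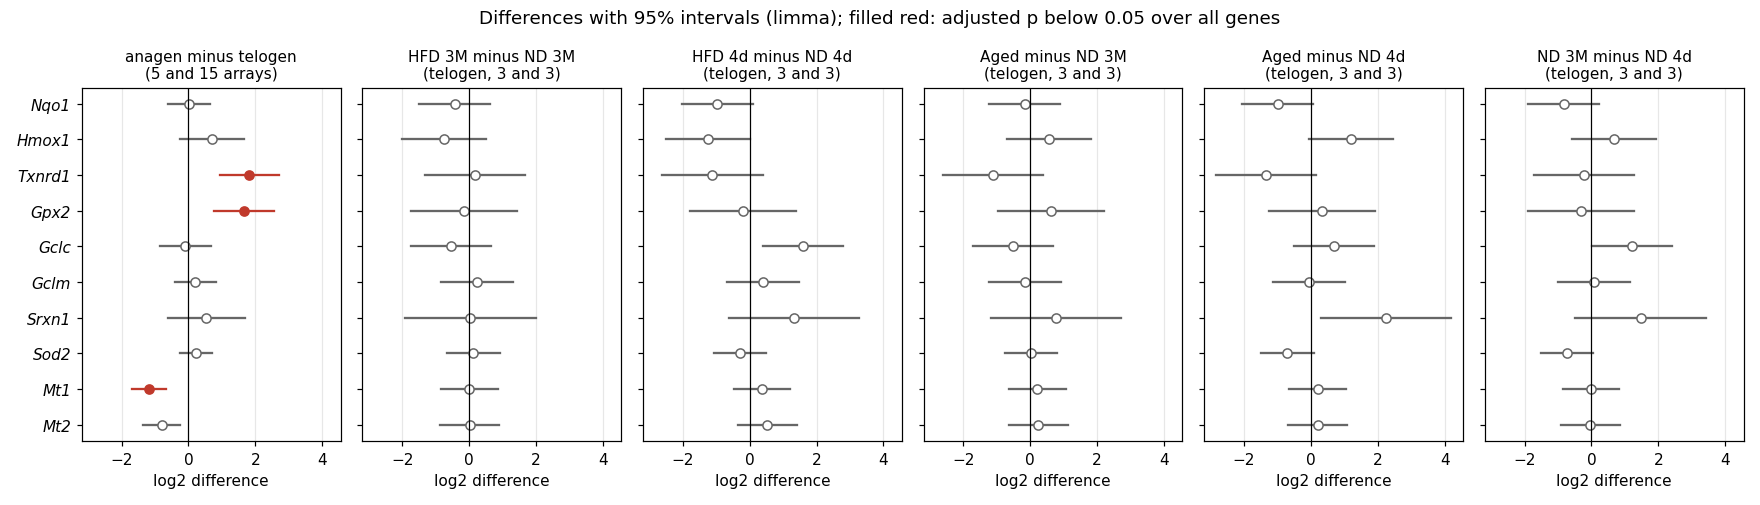
Log2 differences of the 10 members (rows) with 95% intervals in 6 comparisons (panels), filled red where the adjusted p over all genes was below 0.05. Txnrd1, Gpx2 and Mt1 are filled between anagen and telogen, and no member is filled in the 5 telogen panels.

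Between HFD 3M and ND 3M telogen 0 of the 10 members passed (limma), as for 0% of all genes, and 0 had an unadjusted p below 0.05, against 3.9% of all genes. The median difference was 0.01 over the members and -0.04 over all genes, and every member overlapped between the groups, while 9.85% of genes did not. Hmox1 had the largest difference, -0.74 ± 0.58, with -0.96, 1.62 and -0.55 in HFD 3M and 0.57, 0.53 and 1.23 in ND 3M, so 2 HFD arrays lay below all ND arrays and 1 above. Nqo1 had 1.83, 1.99 and 3.89 in HFD 3M and 2.86, 2.76 and 3.36 in ND 3M, again with 2 low arrays and 1 high one. Without HFD 3M telogen replicate 3, its highest array, the Nqo1 difference was -1.09 ± 0.36, against -0.43 ± 0.49 with it, and neither passed. Mt1 and Mt2 differed by 0.0089 ± 0.39 and 0.014 ± 0.41, with 95% intervals of -0.83 to 0.85 and -0.87 to 0.90.

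Between HFD 4d and ND 4d telogen 0 of 10 members passed (limma), as for 0% of all genes, and 1 had an unadjusted p below 0.05, against 4.36% of genes. In 3 members the groups did not overlap, against 9.7% of all genes. Gclc had levels of 1.52, 2.48 and 2.32 in HFD 4d and 0.66, 0.98 and -0.07 in ND 4d, so every HFD array lay above every ND array. The difference was 1.58 ± 0.55 (limma adjusted p = 1.00), a 2.99-fold higher mean. Nqo1 had 2.82, 2.87 and 2.88 in HFD 4d and 4.01, 4.01 and 3.46 in ND 4d, with all HFD arrays lower and close to each other (-0.97 ± 0.49). Hmox1 had -1.10, -0.87 and -1.41 in HFD 4d and -0.49, -0.06 and 0.89 in ND 4d, again with all HFD arrays lower (-1.24 ± 0.58). In Txnrd1 (-1.11 ± 0.69) and Srxn1 (1.32 ± 0.90) the arrays overlapped, and Srxn1 had the widest spread, 0.38, -1.63 and 1.36 in HFD 4d and -0.91, -3.03 and 0.08 in ND 4d. The other 5 members differed by 0.53 or less in size.

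Averaged over both durations, 0 members passed the diet comparison (limma), as for 0% of genes, and Hmox1 was the 1 member with an unadjusted p below 0.05, -0.99 ± 0.41, against 4.29% of genes. The test of whether the diet difference itself differed between durations passed for 0 members and 0% of genes. Its largest member value was that of Gclc, -2.11 ± 0.78 (limma adjusted p = 1.00). Over 3 months the HFD arrays had 2.40, 1.20 and 0.03 and the ND arrays 1.78, 1.92 and 1.51, which overlap, unlike the 4-day arrays. Gclc was also the 1 member with an unadjusted p below 0.05, against 3.74% of genes. In all these telogen diet comparisons the diets also lay in different slide rows, which cannot be told apart from diet.

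In aged telogen 0 of 10 members passed against ND 3M telogen (limma), where 0.0641% of genes passed, and 0 had an unadjusted p below 0.05, against 11.9% of genes. All 10 overlapped, while 18% of genes did not. The largest difference was that of Txnrd1, -1.12 ± 0.69, whose second probe differed by 1.33 in the other direction, with a wide spread. With the mean of both probes the Txnrd1 difference was 0.11. Hmox1 had 1.24, 1.61 and 1.11 in aged and 0.57, 0.53 and 1.23 in ND 3M, a difference of 0.55 ± 0.58, with 1 ND array inside the aged range.

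Against ND 4d telogen 0 members passed in aged telogen (limma), where 0.0374% of genes passed, and 1 had an unadjusted p below 0.05, against 7.85% of genes. In 3 members the groups did not overlap, against 10.5% of genes. Srxn1 had levels of 0.56, 0.56 and 1.74 in aged and -0.91, -3.03 and 0.08 in ND 4d, higher on every aged array (2.24 ± 0.90, limma adjusted p = 0.565). Hmox1 was also higher on every aged array, with 1.24, 1.61 and 1.11 against -0.49, -0.06 and 0.89 (1.21 ± 0.58). Nqo1 was lower on every aged array, with 2.76, 3.44 and 2.29 against 4.01, 4.01 and 3.46 (-0.99 ± 0.49). With slide as a factor the Hmox1 difference was -1.27 ± 1.04, opposite in sign. Aged telogen lies alone among telogen groups on slide 3, and in that fit only the HFD 4d anagen array links slide 3 to slide 2. The Hmox1 level of that unreplicated array, 1.82 against a mean of -1.13 in HFD 4d telogen, thus enters the difference. Both age comparisons use the same aged arrays. In both, age and slide differ together and no diet is given for the aged mice, so these cannot be told apart.

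Between ND 3M and ND 4d telogen, which differ in age, diet duration and slide together so that these cannot be told apart, 0 members passed (limma), where 0.016% of genes passed, and 1 had an unadjusted p below 0.05, against 11.8% of genes. The groups did not overlap in 3 members, against 24.2% of genes. Gclc had 1.78, 1.92 and 1.51 in ND 3M and 0.66, 0.98 and -0.07 in ND 4d, all higher in ND 3M (1.21 ± 0.55, limma adjusted p = 0.416). Nqo1 (-0.83 ± 0.49) and Sod2 (-0.73 ± 0.36) were lower on every ND 3M array, with Sod2 levels of 0.60, 0.48 and 1.06 against 1.78, 1.24 and 1.31. The median over all genes was -0.14 here and -0.02 over the members. The ND 4d arrays enter this comparison and those of HFD 4d and of aged with ND 4d, and Nqo1 had its highest telogen mean and Gclc its lowest in ND 4d.

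In anagen each condition had 1 array, so differences there have no replicate check. Hmox1 had the widest range over the 5 arrays, with 2.23 in aged, -0.66 in HFD 3M, 0.41 in ND 3M, 1.82 in HFD 4d and 0.79 in ND 4d. The HFD 3M array lay 1.06 below the ND 3M array and the HFD 4d array 1.03 above the ND 4d array. Nqo1 and Gclm had the narrowest ranges, 2.80 to 3.22 and 1.59 to 2.03.

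Among telogen arrays the members varied to different degrees. The pooled standard deviation within telogen groups was 0.41 for Sod2, 0.45 for Mt1 and 0.49 for Mt2, and reached 0.95 for Gpx2 and 1.19 for Srxn1, with a median over all genes of 0.67. The telogen group means of each member can be ordered, but no difference between telogen groups that was tested passed. For Mt1 the means ran over 4.94 ± 0.33 in HFD 4d, 4.76 ± 0.52 in aged, 4.56 ± 0.62 in ND 4d, 4.55 ± 0.38 in HFD 3M and 4.54 ± 0.36 in ND 3M (SD, n = 3 each), and the SD of each group exceeded the step to the next mean. For Hmox1 they ran over 1.32 ± 0.26 in aged, 0.77 ± 0.39 in ND 3M, 0.11 ± 0.71 in ND 4d, 0.04 ± 1.39 in HFD 3M and -1.13 ± 0.27 in HFD 4d (SD, n = 3 each). The step between aged and ND 3M exceeded the SD of both, and the later steps did not.

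Pairs of members were compared over the 15 telogen arrays, 45 pairs in all, and 2 passed after Benjamini-Hochberg adjustment of two-sided permutation tests with 100000 resamples. Mt1 and Mt2 varied together, with Pearson's r = 0.97 (adjusted permutation p = 0.00045, the smallest these permutations can give) and Spearman's rho = 0.96 (adjusted permutation p = 0.00045). Without the 2 arrays farthest from the Mt1 median r was 0.97, for deviations from the group means 0.98, and within slides 0.92 on slide 1 and 0.99 on slide 2 (6 telogen arrays each), so the pair moved together within groups and slides. Their transcripts are alike in sequence, and whether each probe also binds the other transcript was not tested. Nqo1 and Sod2 had r = 0.76 (adjusted permutation p = 0.0243), and rho = 0.72 did not pass (adjusted permutation p = 0.0842). Without the 2 farthest arrays r was 0.71, for deviations 0.76, and within slides 0.83 and 0.48. The next pair, Nqo1 and Srxn1, had r = -0.59 (adjusted permutation p = 0.277). Of the 45 pairs 20 had an r above 0, and the known NRF2 targets among the members showed no pair that passed with each other.

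**Figure D3:**
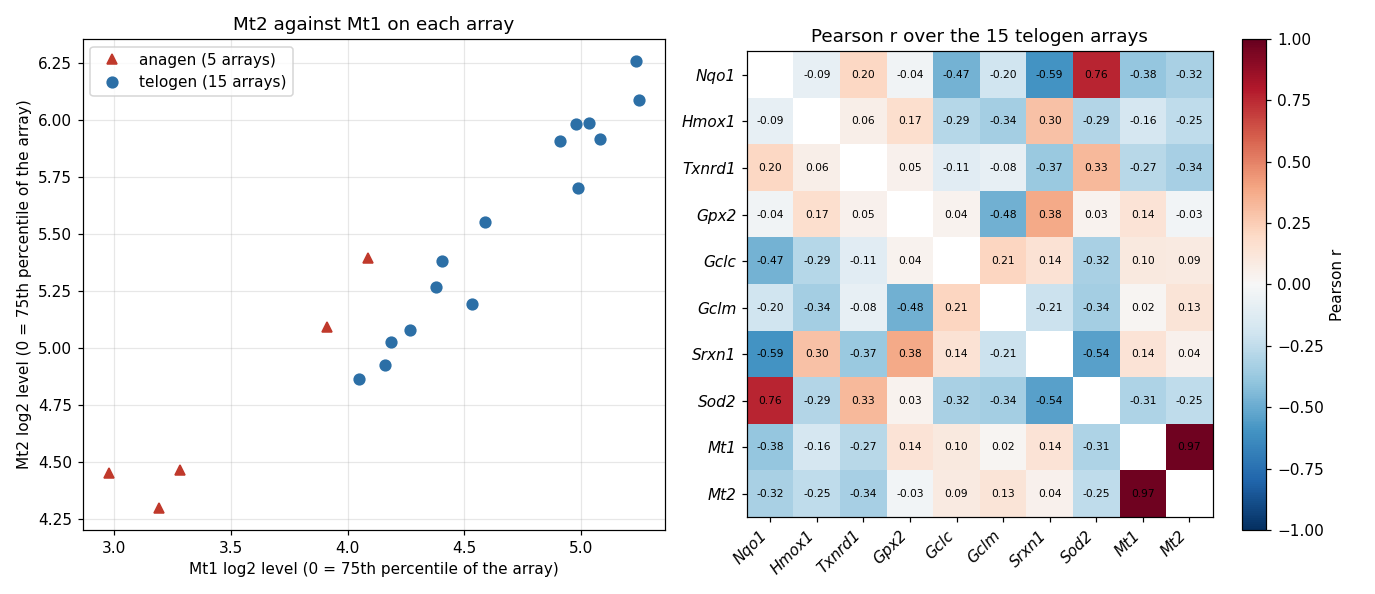
Left, the Mt2 level against the Mt1 level (log2, 0 is the 75th percentile of the array) on 5 anagen arrays (red triangles) and 15 telogen arrays (blue circles), which lie along one line within telogen. Right, Pearson's r of each pair of members over the 15 telogen arrays, red above 0 and blue below, with 0.97 for Mt1 with Mt2 and 0.76 for Nqo1 with Sod2.

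Patterns most like those of the members were sought among 12034 genes well above background on all 20 arrays, by Pearson's r over these arrays, which share scaling and phase. Mt1 was nearest to Mt2 (0.96), Anxa8 (0.93) and Tent5b (0.91), and Mt2 to Mt1, Glul (0.93) and Foxo3 (0.90). Over the 15 telogen arrays alone r was 0.96 for Mt2 with Glul, which encodes glutamine synthetase, and 0.77 for Mt1 with Anxa8. Gpx2 was nearest to Xrn2 (0.90), Ndufa4 (0.86) and Hyou1 (0.83), Txnrd1 to Eif2s1 (0.81), Dcun1d5 (0.80) and Gars (0.79), and Sod2 to Carnmt1 (0.83), Sh3bgrl (0.82) and Nck2 (0.79). Over telogen arrays alone r was 0.86, 0.75 and 0.64 for these genes with Gpx2, and 0.62, 0.71 and 0.66 with Txnrd1. The nearest genes for Nqo1 were Prpf18 (0.79), Trim35 (0.78) and Pnrc2 (0.77), for Hmox1 Gusb (0.76), Hsd11b2 (0.76) and Pim1 (0.73), and for Gclm Heatr6 (0.77), Smim26 (0.71) and Wdr82 (0.70). For Srxn1 they were Mto1 (0.77), Mdk (0.73) and Smu1 (0.73), and for Gclc Wdr78 (0.68), Fbh1 (0.68) and Ing1 (0.67).

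Other genes of these pathways were read from 6 lists. Between anagen and telogen the regulators of NRF2 had 0 of 8 measured members higher and 3 lower, where 2.81% of all genes were higher and 3.31% lower. Mafk, a small MAF partner of NRF2, fell by 1.29 ± 0.24 (log2, SE; limma adjusted p = 0.00462), with a highest anagen level of -1.15 and a lowest telogen level of -1.14, so that all 5 anagen arrays lay below all 15 telogen arrays, if narrowly. Sqstm1, the autophagy receptor that binds KEAP1, fell by 0.71 ± 0.16 (adjusted p = 0.0149), with 3.37 to 4.12 in anagen and 4.12 to 4.90 in telogen and no overlap. Maff, another small MAF, fell by 2.61 ± 0.64 (adjusted p = 0.0226), with overlap. Nfe2l2 and Keap1 did not pass. For genes that lay wholly lower in anagen no share over all genes is given here. The separations of Mafk, Sqstm1 and, below, Ephx1 therefore have no such background beside them.

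Among other NRF2 targets 3 of 22 measured members were higher and 1 lower, against the same 2.81% and 3.31% of all genes. Ephx1, the microsomal epoxide hydrolase, fell by 1.30 ± 0.21 (limma adjusted p = 0.0014), with 1.58 to 2.88 in anagen and 3.18 to 4.19 in telogen. The glutathione-conjugate exporter Abcc1 rose by 1.18 ± 0.24 (adjusted p = 0.00867), and Pgd, an NADPH-forming enzyme of the pentose phosphate pathway, rose by 1.22 ± 0.34 (adjusted p = 0.0406), with all 5 anagen arrays above all telogen arrays. The third gene counted as higher is the exporter Abcc4, which was well above background on 5 of 5 anagen and 7 of 15 telogen arrays. No telogen group had it well above background on all 3 arrays, so it entered the test only through the anagen arrays, where it is high. Its fitted difference of 3.22 ± 0.91 (adjusted p = 0.0467) therefore rests partly on undetected levels, and 2 genes were higher without it.

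In glutathione synthesis and turnover 1 of 9 measured members was higher and 0 lower (2.81% and 3.31% of all genes), Ggct, which cleaves gamma-glutamyl amino acids (1.50 ± 0.34, limma adjusted p = 0.0138). Of 16 zinc and metal genes 1 was higher, Mt4, a metallothionein of stratified epithelia (1.81 ± 0.31, adjusted p = 0.00232), and 1 lower, the zinc and manganese importer Slc39a8 (-0.86 ± 0.24, adjusted p = 0.0471). Mt4 had 3.24 to 3.75 in anagen and 0.44 to 3.03 in telogen with no overlap, opposite in direction to Mt1. Of 12 heme and iron genes 0 were higher and 1 lower, the heme-binding Hebp1 (-1.95 ± 0.40, adjusted p = 0.00872). Of 18 genes of superoxide and peroxide removal 0 passed, with 6 at an unadjusted p below 0.05, against 22.9% of all genes. By that unadjusted measure it was 3 of 8 NRF2 regulators and 10 of 22 other NRF2 targets. It was 3 of 9 glutathione genes, 3 of 16 zinc and metal genes and 7 of 12 heme and iron genes. The smallest p of the 18 superoxide and peroxide genes was that of Txn2, mitochondrial thioredoxin (-0.57 ± 0.19, limma adjusted p = 0.0923). With slide as a factor Ephx1, Hebp1, Mt4, Mafk and Ggct still passed and the other 6 of the 11 pathway genes that had passed did not. Mafk, Ephx1, Abcc1 and Mt4 passed whichever of the 20 arrays was left out. Hebp1 did not pass without the HFD 4d anagen array (-1.65), nor Ggct without the ND 3M or the HFD 4d anagen array (up to an adjusted p of 0.0614). Sqstm1 (-0.61 at its smallest) and Maff (-2.18 at its smallest) did not pass without the ND 3M, HFD 4d or ND 4d anagen array. Pgd was lost in 7, Abcc4 in 15 and Slc39a8 in 16 of the 20.

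**Figure D4:**
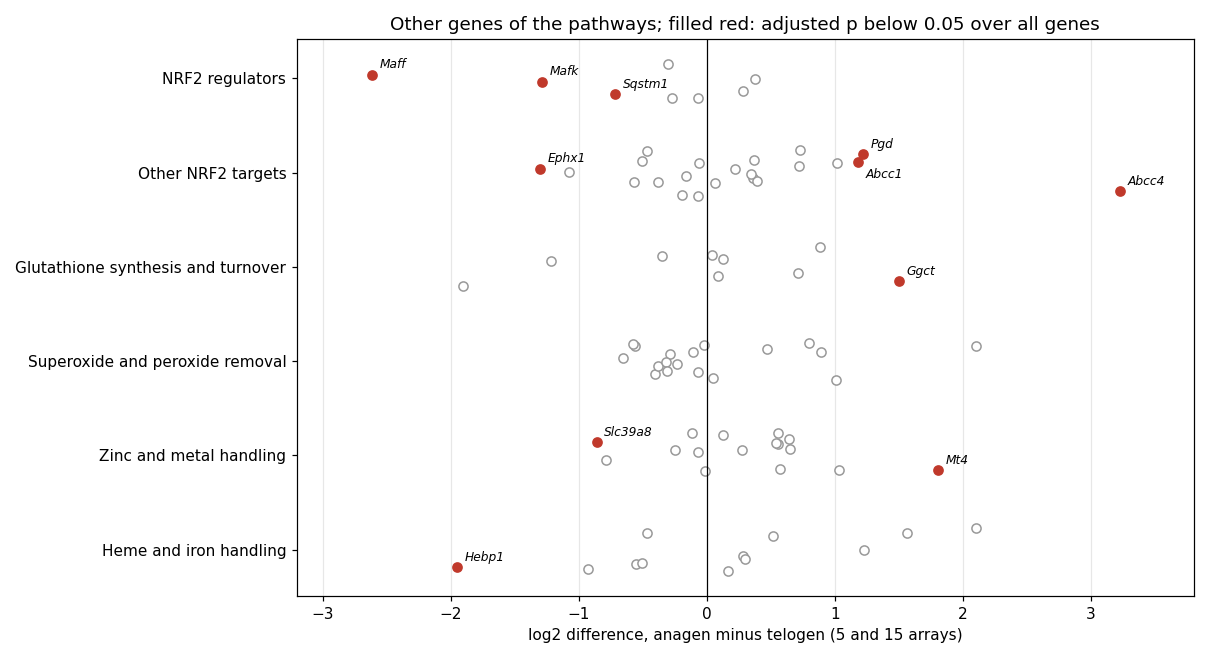
Log2 difference between anagen and telogen (x axis) for each measured gene of the 6 pathway lists (rows, with points spread vertically for legibility), filled red and named where the adjusted p over all genes was below 0.05. The 3 named NRF2 regulators lie to the left of 0, while Mt4, Ggct and 3 of the 4 named NRF2 targets lie to the right, among them Abcc4, detected on 7 of 15 telogen arrays.

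In the telogen comparisons no gene of the 6 lists passed (limma), and the genes below are among those with the smallest p of their list in a comparison. Groups without overlap among them follow in part from that choice. Over all genes 9.85% did not overlap between HFD 3M and ND 3M telogen, and 10.5% between aged and ND 4d telogen. Osgin1, an NRF2 target induced by oxidants, had -1.80, -2.45 and 0.50 in HFD 3M and -4.10, -4.50 and -4.62 in ND 3M telogen, higher on every HFD array (3.15 ± 0.79, limma adjusted p = 1.00). Over 4 days it had -4.69, -4.82 and -5.25 in HFD 4d and -4.35, -1.53 and -4.37 in ND 4d (-1.50 ± 0.79), with the third HFD 4d array not well above background, and the difference between durations was 4.65 ± 1.11 (limma adjusted p = 1.00). Mafg, the third small MAF, had 1.57, 1.82 and 1.36 in HFD 4d and 0.70, 0.12 and 0.31 in ND 4d telogen (1.20 ± 0.39, limma adjusted p = 1.00). Prdx6, a peroxiredoxin, differed by -0.60 ± 0.21 over both diet durations. Its 3-month levels were 2.83, 3.40 and 3.46 in HFD and 3.77, 3.84 and 4.17 in ND, without overlap, and its 4-day levels were 3.16, 3.02 and 3.48 in HFD and 3.95, 3.75 and 3.44 in ND, with overlap.

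Between aged and ND 3M telogen, on different slides, Sesn1, a stress-induced sestrin, had 2.56, 3.04 and 2.77 in aged and 1.71, 1.56 and 1.83 in ND 3M (1.09 ± 0.37, adjusted p = 0.305 by limma). These arrays did not overlap, as for 18% of all genes. Mt3, a further metallothionein, differed by 0.91 ± 0.32 (adjusted p = 0.312) in the same comparison. Against ND 4d telogen Slc39a8 had 3.54, 2.17 and 2.83 in aged and 3.81, 3.81 and 4.44 in ND 4d, lower on every aged array (-1.17 ± 0.34, adjusted p = 0.355). Abcc1 had 1.68, 1.91 and 1.65 in aged and 1.41, 0.73 and -0.27 in ND 4d (1.13 ± 0.40, adjusted p = 0.514).

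Markers of the stem cells and of other cell types also differed between the phases. On the linear scale of the array's 75th percentile, the 10 bulge markers summed to 314 to 442 in anagen and 319 to 616 in telogen. Krt5 (75.7 to 170), Krt15 (70.0 to 155) and Krt14 (58.8 to 111) had the highest telogen levels. The sum therefore partly repeats these keratins. Of the 10, 2 passed, against 6.11% of all genes, both lower, Cd34 (-2.19 ± 0.20) and Krt15 (-0.81 ± 0.18). The differentiating keratinocyte markers, 9 of 10 measured, summed to 172 to 258 in anagen and 111 to 269 in telogen. Of the 9 tested, 7 had differences above 0 and 2 below 0. Only 1 passed, against 6.11% of all genes, Krt1, which rose by 1.26 ± 0.36. The 9 upper follicle and sebocyte markers summed to 52.1 to 78.2 in anagen and 32.2 to 69.3 in telogen. Again 7 had differences above 0 and 2 below 0. Of the 9, 2 passed, against 6.11% of all genes, both higher, Krt79 (1.44 ± 0.27) and Lrig1 (1.18 ± 0.23).

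The 8 fibroblast markers summed to 4.86 to 7.61 in anagen and 7.33 to 22.7 in telogen. Of the 6 tested, 3 had differences above 0, Dcn among them, and 3 below 0. Col1a2 (-1.90 ± 0.32, limma adjusted p = 0.0021) and Col6a1 (-1.44 ± 0.22, adjusted p = 0.00099) fell. In telogen Col1a2 had 2.11 to 9.72 and Col6a1 at least 2.66, while no other marker of the list exceeded 4.44 (Vim). The sum therefore partly repeats Col1a2 and Col6a1. Dcn was well above background on 3 of 5 anagen and 0 of 15 telogen arrays. It entered the test only through anagen, so the size of its difference is not given. The macrophage and Langerhans cell sum came mostly from 1 Itgam probe (95.8 to 169 in anagen and 97.8 to 205 in telogen), and the rest summed to 2.60 to 7.36 and 3.38 to 8.80. The 6 endothelial markers summed to 0.252 to 1.04 in anagen and 0.245 to 0.737 in telogen. Of these Eng was well above background on 5 of 5 anagen and 15 of 15 telogen arrays, Pecam1 on 4 and 13, Tek on 1 and 2, Emcn on 0 and 4, and Cdh5 and Kdr on none. Among the 3 tested 0 passed in limma, with 1 at an unadjusted p below 0.05, against 22.9% of all genes. The red blood cell markers, 5 of 6 measured, summed to 0.415 to 1.28 in anagen and 0.425 to 5.82 in telogen. All 4 that were tested had differences below 0, and Hba-a2, an alpha globin, fell by 1.24 ± 0.36 (limma adjusted p = 0.0486). The part of these cell types in the differences of Txnrd1, Gpx2, Mt1 and the pathway genes was not tested.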

How the data were processed

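RNA from 20 samples was measured on one-colour Agilent arrays. Per the file headers and the submitters' processing notes, Feature Extraction 10.7.1.1 made the scanner files, which hold each spot's processed intensity, background-subtracted and detrended by the authors' scanner software, with no scaling between arrays. The deposited series table holds a linear signal, which equalled each array's processed intensity over its own 75th percentile, with genes not centred, and served as an alternative. The depth of an array is not a count, so the number of arrays limits precision.

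Repeated spots of 1 probe were averaged, log2 was taken, and the 75th percentile of the array was subtracted. Control spots and outlier spots were left out. Probes were named through their transcript accessions and RefSeq, 32994 with 1 symbol and 23611 with none. A probe was tested if well above background on all 3 arrays of a telogen group or on at least 3 anagen arrays, and a gene took its tested probe with the highest mean. limma 3.58.1 (R 4.3.3) fitted the 15 telogen arrays with group as the factor, and all 20 arrays with condition and phase, with two-sided moderated tests and Benjamini-Hochberg adjustment over 18727 genes (threshold 0.05). The median half-width of the members' 95% intervals was 1.14 between telogen groups, 1.61 for diet by duration and 0.70 for phase. No outcome of a test of the fit on simulated data is given here.

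The members and gene lists were chosen with earlier results of these data known. All 10 members are named. From each pathway list the text names up to 4 genes past the threshold. Where none passed, it names some, not all, of the genes with the smallest p of their list in a comparison. As nearest patterns it names the 3 genes with the highest r. Alternatives were normexp background correction (offset 50, on median signals, the files holding no mean signal), quantile normalization, the percentile taken from probes well above background everywhere, a stricter or no filter for dim probes, the mean over probes, the series table, a slide block, a replicate block, fits on the compared arrays only, and leaving out each array. Replicate numbers come from the labels. Of 30 same-numbered pairs of telogen arrays 0 correlated above 0.1 in their deviations from the group means (-0.14 to 0.06), so the numbers were not taken to pair samples. Promoters were searched in Python 3.11.15.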

Additional observations from a re-analysis of the deposited data

How the results depend on the processing

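Across the settings other than arrays left out, 752 of 780 member values kept direction and side of the threshold, 24 changed sign and 4 lost a call, and with 1 array left out it was 660 of 740, with 70, 9 and 1 newly past the threshold. In the 7 telogen comparisons 0 members passed under every setting run, with the replicate block (0 in each) as without it. That block could be fitted for telogen only, its numbers share only a label, and it moved the genes called between aged and ND 3M to 7 from 12 and between ND 3M and ND 4d to 0 from 3. Between anagen and telogen 3 members passed, 0 with slide as a factor, and 0 to 4 with 1 array left out. The count was 0 without the HFD 4d anagen array and 1 without the ND 3M or the aged anagen array. The 2 pairs that passed did so under normexp, quantile normalization and the series table. Of all genes 555 to 2056 passed between anagen and telogen (1145 in the main setting), 0 to 24 between aged and ND 3M (12), 0 to 12 between aged and ND 4d (7), 0 to 7 between ND 3M and ND 4d (3), and 0 to 2 in the diet comparisons (0). Among the genes called between aged and ND 4d the share higher was 85.7%, and 66.7% after quantile normalization and 100% after normexp. Between aged and ND 3M it was 91.7%, and 100% after normexp or with the other percentile. Between ND 3M and ND 4d it was 33.3%, and 66.7% with the other percentile.

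Values below passed in no setting, and the cause of each change of sign was not tested. With slide as a factor, aged against ND 3M became -0.57 for Hmox1, 1.01 for Gclc, 1.11 for Gclm and -0.54 for Srxn1. Aged against ND 4d became -1.27 for Hmox1 and 0.44 for Gclm. ND 3M against ND 4d became -0.70 for Hmox1, 0.011 for Txnrd1, 0.75 for Gpx2, -0.67 for Gclm, 0.59 for Mt1 and 0.38 for Mt2. Diet by duration became -0.088 for Gpx2, and anagen against telogen -0.18 for Nqo1 and 0.25 for Gclc. With the mean over probes, Txnrd1 became 0.11 for aged against ND 3M and 0.0064 for aged against ND 4d, and Mt1 1.27 for ND 3M against ND 4d. With quantile normalization Gclm became 0.036 for aged against ND 4d and Mt1 0.0074 for ND 3M against ND 4d. With the percentile over probes detected on all arrays these were 0.051 and 0.0079, with -0.014 for Gpx2 in diet by duration and -0.0034 for Nqo1 in anagen. With 1 array left out, some members ranged across 0. For HFD 3M against ND 3M these were Txnrd1 (-0.17 to 0.36), Gpx2 (-0.70 to 0.55), Gclc (-1.12 to 0.058), Gclm (-0.33 to 0.79), Srxn1 (-0.51 to 0.56), Sod2 (-0.13 to 0.30), Mt1 (-0.21 to 0.19) and Mt2 (-0.16 to 0.28). For HFD 4d against ND 4d these were Gpx2 (-0.55 to 0.14). For HFD against ND over both durations these were Gpx2 (-0.46 to 0.17) and Sod2 (-0.21 to 0.031). For diet by duration these were Nqo1 (-0.12 to 0.91), Hmox1 (-0.29 to 1.00), Gpx2 (-0.48 to 0.77) and Gclm (-0.72 to 0.39). For aged against ND 3M these were Nqo1 (-0.47 to 0.11), Gclm (-0.71 to 0.40) and Sod2 (-0.24 to 0.32). For aged against ND 4d these were Gpx2 (-0.054 to 1.01), Gclm (-0.31 to 0.28), Mt1 (-0.056 to 0.54) and Mt2 (-0.066 to 0.55). For ND 3M against ND 4d these were Txnrd1 (-0.77 to 0.12), Gpx2 (-1.02 to 0.062), Gclm (-0.47 to 0.65), Mt1 (-0.27 to 0.33) and Mt2 (-0.30 to 0.31). For anagen against telogen these were Nqo1 (-0.080 to 0.27) and Gclc (-0.28 to 0.27).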
